A study of Mus musculus with 8 samples.

Results

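The TNF ligand and receptor superfamilies were followed in control and Il6ra-deficient mouse macrophages that had been exposed to IL-6. Members were the genes whose single symbol in the array annotation begins with Tnfrsf or Tnfsf, together with Tnf, Cd40, Cd40lg, Fas, Fasl, Lta, Ltb and Ltbr. This gave 37 genes of 19938 measured, 14 ligands and 23 receptors, and each was read by 1 probe set. The probe set shared by Tnfsfm13, Tnfsf13 and Tnfsf12 names several genes and was therefore not included. The rule reads gene symbols and uses no measured value.

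TNF family ligands are mostly trimeric type II membrane proteins, some of which are shed by proteases, and each binds 1 or more receptors of the TNF receptor family. Receptors with a death domain recruit TRADD or FADD and can lead to NF-κB activation or to cell death, whereas most of the others bind TRAF adaptors directly and a few are decoys that bind ligand without signalling. Macrophages are a major source of TNF, carry both TNF receptors, and use RANK, the product of Tnfrsf11a, when they become osteoclasts.

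The macrophages were grown from bone marrow of Il6ra flox/flox mice (Ctrl, 4 arrays) or of Il6ra flox/flox mice carrying LysMCre tg/wt (IL6raKO, 4 arrays). All cultures received M-CSF at 10 ng/ml for 10 days, were starved of serum overnight and were then given recombinant IL-6 at 50 ng/ml for 4 h. LysMCre is driven from the lysozyme locus of myeloid cells and was present in IL6raKO mice only, so Cre and the loss of Il6ra cannot be told apart, and no array was from cells without IL-6. The labels call the arrays biological replicates and give no age, and they do not say that each came from its own animal. Each p-value therefore rests on the scatter of 8 samples alone, whose number limits the precision. Whether that scatter is between animals or only between cultures is not known.

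Il6ra, the deleted receptor gene, had log2 expression of 8.43, 8.40, 8.40 and 8.45 in the Ctrl arrays and 7.75, 8.10, 7.91 and 7.92 in the IL6raKO arrays. The groups did not overlap (difference -0.50, SE 0.07, limma adjusted p = 0.0607 over all genes, 0.00762 to 0.337 under 17 alternatives). The 14 measured macrophage markers had a mean level between 10.92 and 11.05 in Ctrl and between 10.96 and 10.99 in IL6raKO. Array medians lay between 6.31 and 6.35, and Ctrl replicate 4 stood apart on the first principal component (21.5, against -6.6 to 4.8 for the others). Differences that moved by more than 1.5 times without that array are also given without it, with each gene or in the account of that array.

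No TNF ligand or receptor gene passed the test over all genes, and the whole family stayed within a narrow range. Of the 37 members, 0 were called by limma (adjusted p under 0.05), where 0.0301% of all genes (6 of 19938) were. At an unadjusted p under 0.05, 1 member (Tnfrsf1a) was lower in IL6raKO and 1 (Tnfrsf1b) was higher, which is 2.7% of the members in each direction. The background was 4.54% of all genes lower and 2.74% higher, so each count is a single gene, near or below what all genes gave. The median difference was -0.02 on the log2 scale over the members and -0.01 over all genes, and the median size of a difference was 0.06 in both. The differences ran from -0.21 for Tnfrsf1a to 0.13 for Tnfrsf1b.

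The intervals bound the differences in array signal that could have been missed. For all 37 members the 95% confidence interval of the difference, not adjusted for the number of genes, lay inside a 1.5-fold change in either direction, and for 25 of them it lay inside a 1.2-fold change. The outermost bounds were -0.47 for Tnfrsf17 and 0.46 for Tnfsf13b. Arrays compress differences of dim probe sets, and 19 of the 37 members lay above the median level of all genes and 30 above the 25th percentile. Il6ra, the deleted gene, was not dim (percentile 78.4 of mean level) and still read 70.6% of its Ctrl level. How complete the deletion was, and how much Il6ra transcript was lost, was not tested. That value therefore does not tell how far array signal follows transcript number. The bounds are for array signal in these cultures and not for transcript number.

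**Figure D1:**
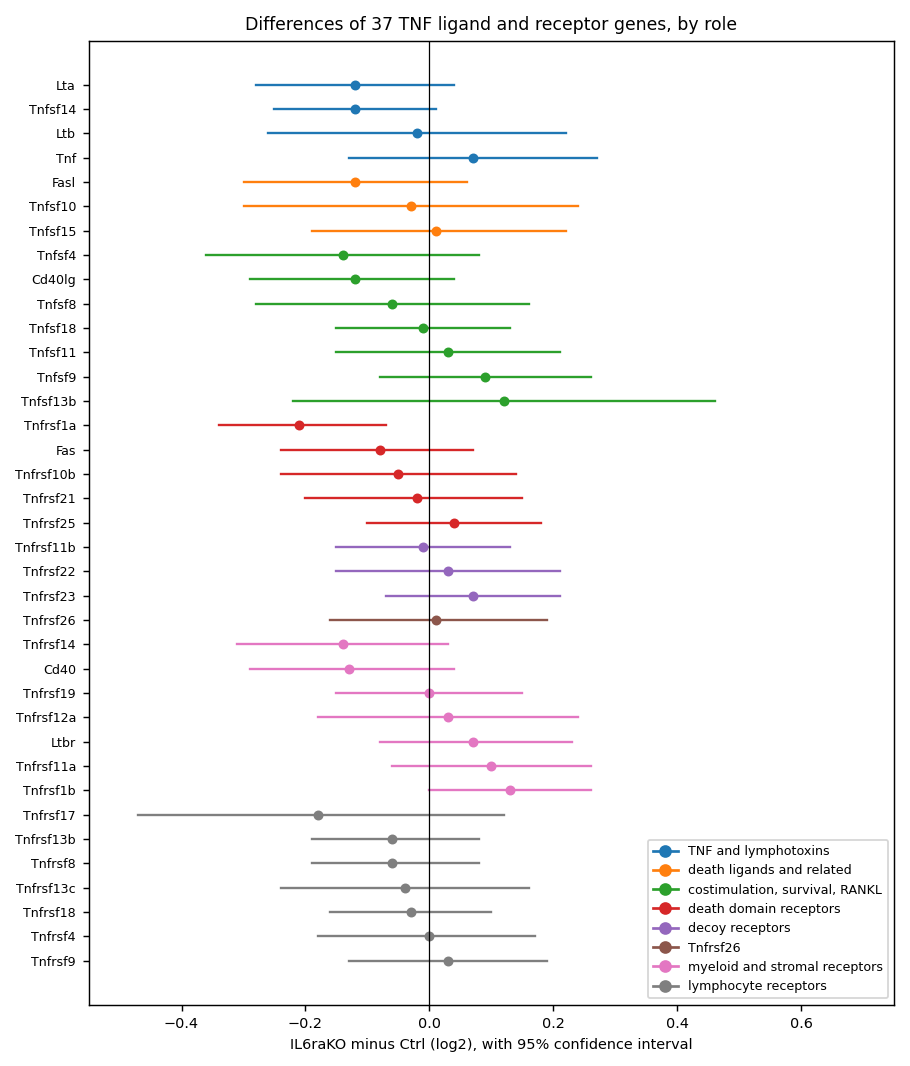
Difference of each member, IL6raKO minus Ctrl on the log2 scale (x axis), with its 95% confidence interval from limma, 4 arrays per group, ordered by role (y axis). The interval of Tnfrsf1a lies wholly below 0, that of Tnfrsf1b lies just above 0, and those of the other members cross 0.

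**Figure D2:**
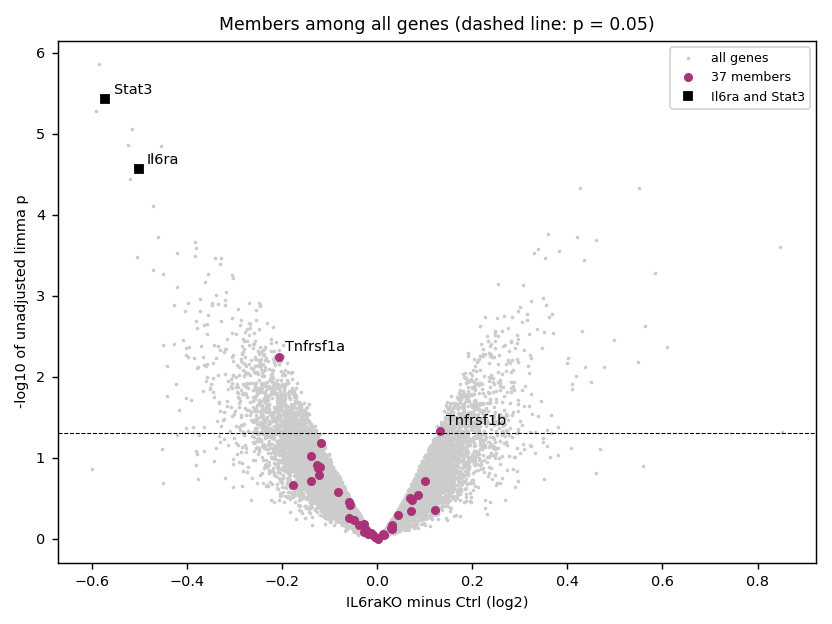
Difference (x axis, log2) against -log10 of the unadjusted limma p (y axis) for all 19938 genes in grey, the 37 members in purple, and Il6ra and Stat3 as black squares. The members sit in the lower centre of the cloud, with Tnfrsf1a and Tnfrsf1b alone above the dashed line, which marks the unadjusted threshold of 0.05.

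The receptors of TNF itself held the lowest p-values of the family, and in opposite directions. Tnfrsf1a, the widely expressed death domain receptor of TNF, had log2 expression of 8.44, 8.52, 8.47 and 8.41 in Ctrl and 8.18, 8.34, 8.24 and 8.26 in IL6raKO. Every IL6raKO array lay below every Ctrl array, from 8.46 ± 0.05 to 8.25 ± 0.07 (SD, n = 4 each). The difference was -0.21 (SE 0.06, 95% confidence interval -0.34 to -0.07), or 86.6% of the Ctrl level, and it did not pass over all genes (limma adjusted p = 0.566). Under 17 alternatives it stayed between -0.24 and -0.18, with adjusted p between 0.292 and 0.855.

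Tnfrsf1b, the TRAF-binding receptor of TNF that is prominent on myeloid cells and lymphocytes, had 10.82, 10.83, 10.92 and 10.83 in Ctrl and 11.03, 11.02, 10.98 and 10.91 in IL6raKO. The IL6raKO values were higher except that replicate 4 lay just under Ctrl replicate 3, so the groups overlapped by that pair alone. The difference was 0.13 (SE 0.06, 95% confidence interval 0.00 to 0.26, limma adjusted p = 0.68), which did not pass. It ranged from 0.10 to 0.16 under the 17 alternatives. It was no longer at an unadjusted p under 0.05 with array weights, the replicate number as a block, centring on the 75th percentile or repeated quantile normalization. The same held when any array other than Ctrl replicate 3 or IL6raKO replicate 4, the arrays that overlapped, was left out.

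Within each array, the value of Tnfrsf1b minus that of Tnfrsf1a is free of shifts common to the whole array. It was 2.38, 2.31, 2.45 and 2.42 in Ctrl and 2.85, 2.68, 2.74 and 2.65 in IL6raKO. The groups did not overlap, and their means differed by 0.34. The size of the value itself has no meaning, since the probes of both genes differ in brightness. This contrast was formed after both differences had been seen, and no test is given for it.

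**Figure D3:**
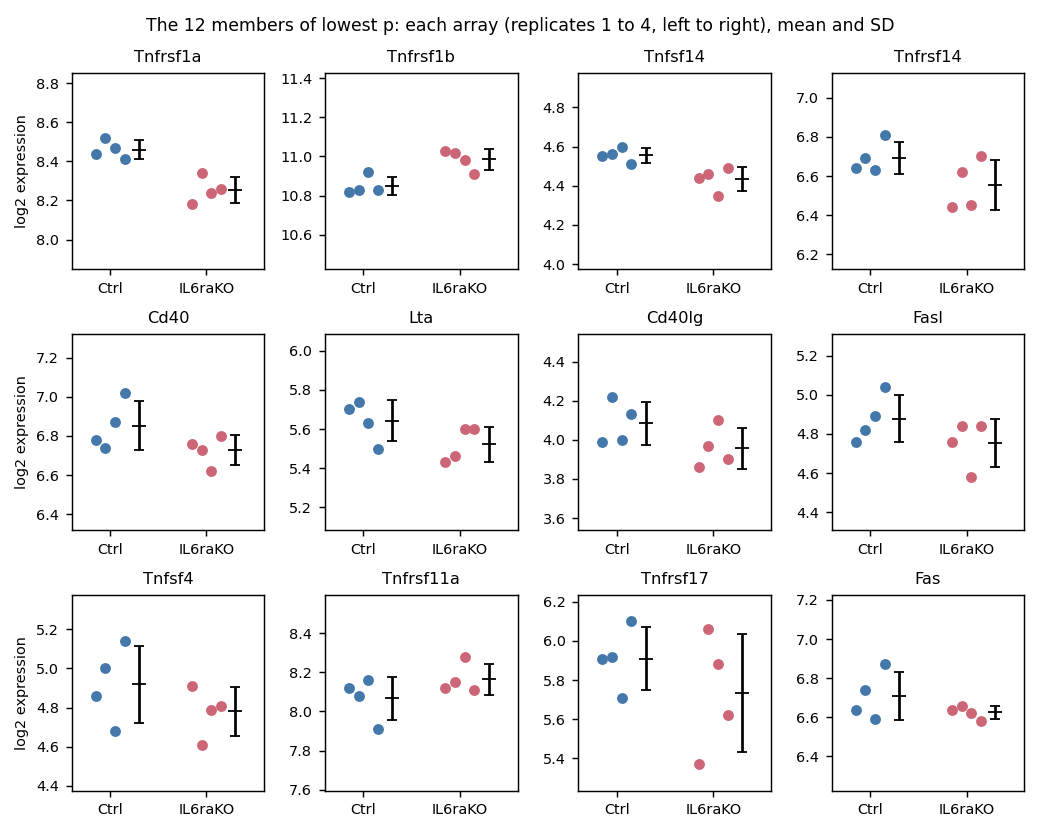
Log2 expression (y axis, each panel spanning 1 unit) of the 12 members of lowest p in every array, Ctrl in blue and IL6raKO in red, with mean and SD (n = 4) in black. The groups separate for Tnfrsf1a and Tnfsf14, nearly so for Tnfrsf1b, and overlap for the other 9.

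IL-6 signals through STAT3. Stat3 itself was lower in IL6raKO (difference -0.57, SE 0.07, limma adjusted p = 0.0348, 0.000766 to 0.258 under 17 alternatives). The DNA before the start of both TNF receptor genes, neither of which was called, and of Tnf is shown. Each stretch is 250 bases from RefSeq, build GRCm38.p6. Any part of STAT3 in the values of these genes was not tested. Capitals mark matches to TTCNNNGAA, the palindromic motif of STAT dimers. The choice of genes and motif was made after the values were seen.
Tnfrsf1a, chr6:125349473-125349722, plus strand: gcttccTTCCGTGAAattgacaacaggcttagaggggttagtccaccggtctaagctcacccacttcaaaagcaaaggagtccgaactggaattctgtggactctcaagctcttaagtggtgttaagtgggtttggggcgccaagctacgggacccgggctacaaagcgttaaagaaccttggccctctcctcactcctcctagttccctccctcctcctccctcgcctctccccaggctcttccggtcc
Tnfrsf1b, chr4:145246871-145247120, minus strand: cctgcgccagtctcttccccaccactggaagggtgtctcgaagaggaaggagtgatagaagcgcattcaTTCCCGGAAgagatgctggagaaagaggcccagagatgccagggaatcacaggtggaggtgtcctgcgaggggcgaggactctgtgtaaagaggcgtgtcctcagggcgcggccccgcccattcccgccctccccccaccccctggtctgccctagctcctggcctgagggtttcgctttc
Tnf, chr17:35202008-35202257, minus strand: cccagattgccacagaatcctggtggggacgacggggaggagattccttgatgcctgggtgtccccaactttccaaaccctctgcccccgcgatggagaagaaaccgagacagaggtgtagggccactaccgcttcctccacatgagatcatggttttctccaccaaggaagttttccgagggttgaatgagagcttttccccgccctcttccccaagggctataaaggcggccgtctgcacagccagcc

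Both receptor genes held 1 match, TTCCGTGAA beginning 244 bases before the start of Tnfrsf1a and TTCCCGGAA beginning 181 bases before that of Tnfrsf1b, and the Tnf window held none. The motif reads the same on both strands. Of the 37 members, 29 had an entry in the promoter table, with 33 windows in all. The motif occurred in 8 of these 33 windows (24.2%), those of Fas, Lta, Ltb, Tnfrsf18, Tnfrsf1a, Tnfrsf1b, Tnfrsf25 and Tnfrsf9, against 7.02% of all 32851 windows of this length. The 8 genes differed by -0.08, -0.12, -0.02, -0.03, -0.21, 0.13, 0.04 and 0.03 in that order, 5 below and 3 above 0. The NF-κB consensus, searched by name on both strands and possibly overlapping the STAT motif, was present for Ltb, Tnfrsf25, Tnfrsf8 and Tnfrsf9, 12.1% of the members' windows and 7.25% of all. The GC box (GGGCGG) was in 42.4% of the members' windows and 32.7% of all, and the TATA box (TATAAA) in 18.2% and 12.4%. Every motif searched was thus more frequent in the members' windows, and the excess was not particular to the STAT motif. A match of letters is a description of the window, and binding was not measured.

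None of the ligands of these receptors passed the test. Tnf, the founding cytokine of the family, had 7.27, 7.42, 7.24 and 7.51 in Ctrl and 7.64, 7.26, 7.40 and 7.43 in IL6raKO. The groups overlapped throughout, and IL6raKO replicate 1 was the highest array. The difference was 0.07 (95% confidence interval -0.13 to 0.27), and it was 0.00 without IL6raKO replicate 1 and 0.12 without Ctrl replicate 4. Lta, lymphotoxin alpha, which binds the same receptors as a homotrimer, had 5.70, 5.74, 5.63 and 5.50 in Ctrl and 5.43, 5.46, 5.60 and 5.60 in IL6raKO. Ctrl replicate 4 was the only Ctrl array within the IL6raKO range. The difference was -0.12 (95% confidence interval -0.28 to 0.04) with that array and -0.17 without it, where it came to an unadjusted p under 0.05 but not to a call (limma adjusted p = 0.774, and 0.582 to 0.88 over its 16 alternatives). Ltb, lymphotoxin beta, the membrane partner of Lta, differed by -0.02 (95% confidence interval -0.26 to 0.22), and by 0.07 without Ctrl replicate 4.

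Ltbr, the receptor of the lymphotoxin heterotrimer that drives lymphoid organ development, was at 6.99, 6.91, 7.04 and 7.13 in Ctrl and 7.16, 7.08, 7.15 and 6.96 in IL6raKO. The groups overlapped, with a difference of 0.07 (95% confidence interval -0.08 to 0.23) and of 0.11 without Ctrl replicate 4. Its other ligand, LIGHT, is encoded by Tnfsf14 and was at 4.55, 4.56, 4.60 and 4.51 in Ctrl and 4.44, 4.46, 4.35 and 4.49 in IL6raKO. All IL6raKO arrays lay below all Ctrl arrays, by a margin of 0.02 between the closest pair. The difference was -0.12 (SE 0.06, 95% confidence interval -0.25 to 0.01, limma adjusted p = 0.703), on a dim probe set.

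Tnfrsf14, the herpesvirus entry mediator and second receptor of LIGHT, had 6.64, 6.69, 6.63 and 6.81 in Ctrl and 6.44, 6.62, 6.45 and 6.70 in IL6raKO. Its means were lower in IL6raKO by about the same amount (difference -0.14, 95% confidence interval -0.31 to 0.03, limma adjusted p = 0.717), but replicate 4 of IL6raKO lay within the Ctrl range. Without that array Tnfrsf14 differed by -0.19 and came to an unadjusted p under 0.05, but not to a call (limma adjusted p = 0.686). Tnfrsf1a and Tnfsf14 were thus the 2 members whose groups did not overlap, both lower in IL6raKO (5.41% of members, against 2.37% of all genes). In the higher direction there were 0, against 2.07% of all genes.

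Among the apoptosis ligands and their receptors, Tnfrsf1a aside, the genotypes overlapped for every gene. Fas, the death receptor of Fas ligand, was at 6.64, 6.74, 6.59 and 6.87 in Ctrl and at 6.64, 6.66, 6.62 and 6.58 in IL6raKO. The Ctrl arrays were more spread (SD 0.124, against 0.0375 in IL6raKO), and the difference of -0.08 (95% confidence interval -0.24 to 0.07) came to -0.03 without Ctrl replicate 4. Fasl, its ligand and a product mainly of T and NK cells, had 4.76, 4.82, 4.89 and 5.04 in Ctrl and 4.76, 4.84, 4.58 and 4.84 in IL6raKO. Its difference was -0.12 (95% confidence interval -0.30 to 0.06), and -0.07 without Ctrl replicate 4.

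Tnfsf10, which encodes the death ligand TRAIL, had 5.98, 5.67, 5.90 and 6.21 in Ctrl and 6.08, 5.98, 5.60 and 5.99 in IL6raKO. Both groups spanned more than 0.4 units and covered each other, and the difference was -0.03 (95% confidence interval -0.30 to 0.24) with all arrays and 0.06 without Ctrl replicate 4. Tnfrsf10b, the death receptor of TRAIL in the mouse, differed by -0.05 (95% confidence interval -0.24 to 0.14). The mouse decoy receptors Tnfrsf22 and Tnfrsf23, which bind TRAIL without a death domain, differed by 0.03 and 0.07, and the neighbouring family member Tnfrsf26 by 0.01. Tnfrsf21, a death domain receptor best known from neurons and T cells, differed by -0.02 (95% confidence interval -0.20 to 0.15). Tnfsf15, a ligand that costimulates T cells, and its receptor Tnfrsf25 differed by 0.01 and 0.04.

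No gene of the RANK system of osteoclast formation passed the test. Tnfrsf11a, which encodes RANK, had 8.12, 8.08, 8.16 and 7.91 in Ctrl and 8.12, 8.15, 8.28 and 8.11 in IL6raKO. Ctrl replicate 4 was the lowest array, and Tnfrsf11a differed by 0.10 with it (95% confidence interval -0.06 to 0.26, limma adjusted p = 0.787) and by 0.05 without it. Tnfsf11, its ligand RANKL, differed by 0.03 and the soluble decoy receptor Tnfrsf11b, osteoprotegerin, by -0.01. The 9 osteoclast markers had mean levels of 7.85 to 7.98 in Ctrl and 7.83 to 8.03 in IL6raKO. Tnfrsf12a, the receptor of the cytokine TWEAK, had 7.50, 7.10, 7.39 and 7.45 in Ctrl and 7.55, 7.32, 7.44 and 7.26 in IL6raKO, which overlapped (difference 0.03, 95% confidence interval -0.18 to 0.24). Its sign turned when Ctrl replicate 2 (-0.06) or IL6raKO replicate 1 (-0.02) was left out, and it was 0.06 without Ctrl replicate 4. Tnfrsf19, a receptor of skin and nervous system, differed by 0.00 (95% confidence interval -0.15 to 0.15).

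Costimulatory pairs between myeloid cells and T cells gave small differences of mixed sign. Cd40, through which T cells activate macrophages and dendritic cells, had 6.78, 6.74, 6.87 and 7.02 in Ctrl and 6.76, 6.73, 6.62 and 6.80 in IL6raKO. It differed by -0.13 over all arrays (95% confidence interval -0.29 to 0.04, limma adjusted p = 0.736) and by -0.07 without Ctrl replicate 4, the highest array. Cd40lg, the ligand made by activated T cells, had 3.99, 4.22, 4.00 and 4.13 in Ctrl and 3.86, 3.97, 4.10 and 3.90 in IL6raKO, where the groups overlapped on a dim probe set (difference -0.12, 95% confidence interval -0.29 to 0.04). Tnfsf4, a T cell costimulator of antigen-presenting cells, had 4.86, 5.0, 4.68 and 5.14 in Ctrl and 4.91, 4.61, 4.79 and 4.81 in IL6raKO. Its difference was -0.14 with all arrays (95% confidence interval -0.36 to 0.08) and -0.07 without Ctrl replicate 4. It was -0.08 without IL6raKO replicate 2 and -0.22 without Ctrl replicate 3, so its size depended on single arrays. In the last of these fits Tnfsf4 came to an unadjusted p under 0.05 but not to a call (limma adjusted p = 0.698).

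The remaining costimulatory ligands differed by 0.09 for Tnfsf9, by -0.06 for Tnfsf8 and by -0.01 for Tnfsf18. Their receptors on lymphocytes, Tnfrsf9, Tnfrsf8 and Tnfrsf18, differed by 0.03, -0.06 and -0.03, and Tnfrsf4, the receptor of Tnfsf4, by 0.00. All 7 of these intervals included 0.

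The most variable members, Tnfsf13b and Tnfrsf17, belong to the B cell survival system. Tnfsf13b, which encodes the survival factor BAFF that myeloid cells supply to B cells, had 6.20, 6.50, 5.93 and 6.59 in Ctrl and 6.68, 6.17, 6.23 and 6.61 in IL6raKO. The pooled SD of 0.281 within groups was the largest of the family, where the median was 0.109 over the members and 0.113 over all genes. Its difference of 0.12 (95% confidence interval -0.22 to 0.46) was 0.22 without Ctrl replicate 4 and 0.00 without Ctrl replicate 3. Tnfrsf17, a BAFF and APRIL receptor of plasma cells, came next with a pooled SD of 0.242. It had 5.91, 5.92, 5.71 and 6.10 in Ctrl and 5.37, 6.06, 5.88 and 5.62 in IL6raKO, so that IL6raKO replicate 1 was the lowest of the 8 arrays and replicate 2 the second highest.

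Tnfrsf17 differed by -0.18 with all arrays (95% confidence interval -0.47 to 0.12, limma adjusted p = 0.792), by -0.06 without IL6raKO replicate 1, by -0.29 without IL6raKO replicate 2 and by -0.11 without Ctrl replicate 4. Without IL6raKO replicate 2 it came to an unadjusted p under 0.05, but not to a call (limma adjusted p = 0.759). The other BAFF receptors, Tnfrsf13b and Tnfrsf13c, differed by -0.06 and -0.04. Their pooled SDs were smaller, 0.0607 and 0.141, and Tnfrsf13b was among the least variable members. The 8 measured B cell markers were all lower in IL6raKO by difference (8 of 8, median -0.14, 1 at an unadjusted p under 0.05 and 0 called), with mean levels of 5.61 to 5.77 in Ctrl and 5.52 to 5.63 in IL6raKO. Their median was -0.07 without Ctrl replicate 4, again with 8 of 8 below 0. Of all genes, 54.2% were below 0 and 4.54% were lower at an unadjusted p under 0.05. In other lists, 11 of 12 mast cell and basophil, 10 of 12 T and NK cell and 9 of 13 neutrophil markers were below 0. Without Ctrl replicate 4 these counts were 10, 7 and 7, and 50.8% of all genes were below 0. The monocyte, stromal and endothelial, dendritic cell, macrophage and osteoclast lists had 4 of 5, 7 of 10, 5 of 9, 7 of 14 and 4 of 9 below 0. Without that array they had 4, 6, 6, 10 and 6. The mean levels of the B cell markers lay below the array medians of 6.31 to 6.35. The part of such cells in the values of these receptors was not tested. In bulk samples fewer cells of a type, less RNA per cell and background signal cannot be told apart.

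**Figure D4:**
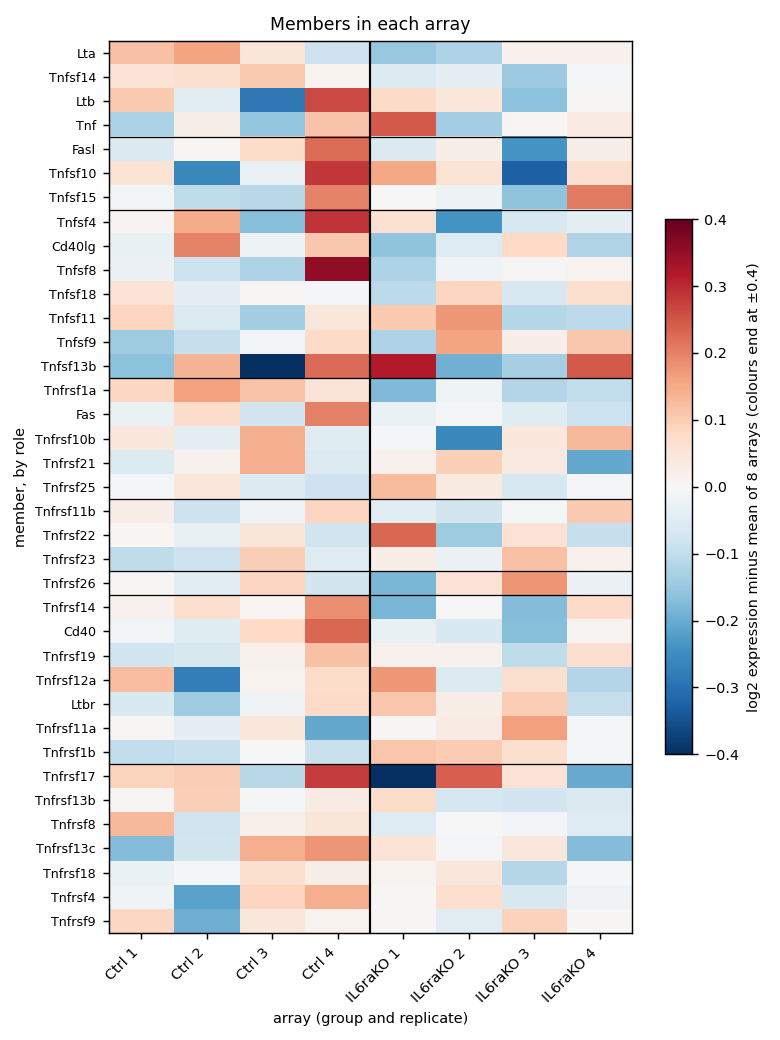
Each member's log2 expression minus its mean over the 8 arrays (colour, ending at 0.4 in either direction), with members by role in rows and arrays in columns. Tnfrsf1a changes colour at the line between the genotypes, whereas Tnfsf8, Tnfsf10 and Tnfsf4 are reddest in Ctrl replicate 4.

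One array carried many of the family's highest values. Ctrl replicate 4 was the highest of the 8 arrays for 12 of the 37 members (32.4%), and for 23.6% of all genes. The 12 were Ltb, Tnfsf10, Fasl, Tnfsf4, Tnfsf8, Fas, Cd40, Tnfrsf14, Tnfrsf19, Tnfrsf4, Tnfrsf13c and Tnfrsf17. For Tnfsf8, a ligand of activated lymphocytes, it read 5.04, where the other 7 arrays read 4.56 to 4.70. In the same array the 12 mast cell and basophil markers had a mean level of 6.37, against 5.92 to 6.10 in the other Ctrl arrays and 5.72 to 6.17 in IL6raKO. The 12 T and NK cell markers stood at 5.58, against 5.44 to 5.52 in the other Ctrl arrays and 5.39 to 5.48 in IL6raKO. Of these, only Cd2 (6.27, against 5.55 to 6.04) and Il2rb (5.57) were highest in Ctrl replicate 4. The others, Cd3e (6.71) among them, lay within the range of the other 7 arrays. Ctrl replicate 4 was also the highest of the 8 for the B cell markers (5.77) and the neutrophil markers (6.49), and the lowest for the macrophage markers (10.92). Whether such cells were present, and their part in the members' values, was not tested. Without the array, 17 members were below 0 and 20 above, where 22 and 15 had been with it. The sign turned for Ltb, Tnfsf8 (-0.06 to 0.05), Tnfsf10, Tnfrsf4 (0.00 to 0.04), Tnfrsf11b (-0.01 to 0.02), Tnfrsf13c (-0.04 to 0.01) and Tnfrsf26 (0.01 to -0.01). Without it Tnfsf15 differed by 0.08, Tnfsf11 by 0.05, Tnfrsf19 by 0.04, Tnfrsf21 by -0.05, Tnfrsf22 by 0.01 and Tnfrsf25 by 0.02. The median difference of the members was then 0.02 and Tnfrsf1a differed by -0.22, so its value did not rest on it.

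Family genes that lie side by side gave small differences, some of the same sign and some of opposite signs. In the order of protein-coding genes of RefSeq (GRCm38.p6), Ltb, Tnf and Lta follow each other on chromosome 17 and differed by -0.02, 0.07 and -0.12. Tnfsf4, Tnfsf18 and Fasl on chromosome 1 differed by -0.14, -0.01 and -0.12. Ltbr and Tnfrsf1a, separated by 1 gene on chromosome 6, differed by 0.07 and -0.21, and Tnfrsf1b and its neighbour Tnfrsf8 on chromosome 4 by 0.13 and -0.06. Tnfrsf26, Tnfrsf22 and Tnfrsf23 on chromosome 7 all lay within 0.07 of 0.

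Downstream of the receptors, no signalling gene was called. The lists covered adaptors, kinases, ubiquitin enzymes and associated proteins, NF-κB subunits, sheddases, regulators of Tnf mRNA, and other family members with the adaptor Edaradd. They held 72 genes, of which 68 were measured. Of these 68, 0 were called in limma, 2 (2.94%) were lower and 0 higher at an unadjusted p under 0.05, and the median difference was 0.00. These shares were below those of all genes (4.54% lower and 2.74% higher). The 2 genes were Mlkl and Ripk3.

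Mlkl, which encodes the protein that perforates the membrane in necroptosis, had log2 expression of 7.90, 7.80, 7.92 and 8.04 in Ctrl and 7.43, 7.52, 7.74 and 7.80 in IL6raKO. The highest IL6raKO array and the lowest Ctrl array met at 7.80 after rounding, with no overlap before it. The difference was -0.30 (SE 0.09, 95% confidence interval -0.49 to -0.10, limma adjusted p = 0.571), between -0.35 and -0.23 under 17 alternatives, with adjusted p of 0.362 to 0.855. Ripk3, the kinase that activates it, had 6.66, 6.84, 6.44 and 6.69 in Ctrl and 6.36, 6.30, 6.43 and 6.54 in IL6raKO. Only IL6raKO replicate 4 reached into the Ctrl range. The difference was -0.25 (SE 0.09, 95% confidence interval -0.45 to -0.06, limma adjusted p = 0.625). Neither gene passed over all genes.

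Of the 14 measured genes in the list of kinases and the cell death switch, the other 12 had differences between -0.08 and 0.12. Cflar, which encodes the caspase-8 inhibitor cFLIP, differed by -0.08 in its brightest probe set and by 0.04 over the mean of its 3 probe sets. Among 11 adaptors, Tank differed by 0.18 (95% confidence interval -0.07 to 0.42), Daxx by 0.11 and Traf5 by 0.09, and the value of Tank came to 0.05 without Ctrl replicate 4. Of 10 ubiquitin enzymes and associated proteins, Tnfaip3, the deubiquitinase A20 that restrains NF-κB, differed by 0.12 (95% confidence interval -0.03 to 0.28), Otulin by 0.08 and Tax1bp1 by 0.05. Without Ctrl replicate 1 Otulin came to 0.03, and without Ctrl replicate 4 Tax1bp1 came to 0.01.

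No NF-κB gene and no gene of TNF mRNA control or TNF release passed the test. Of 9 IKK and NF-κB genes, Ikbkg, the regulatory subunit of the kinase complex, was higher in each IL6raKO array than in each Ctrl array (difference 0.12, 95% confidence interval -0.01 to 0.25, limma adjusted p = 0.707). The closest pair was 7.29 in IL6raKO replicate 1 and 7.28 in Ctrl replicate 1. Rel differed by 0.08, and by 0.05 without IL6raKO replicate 1. Relb differed by -0.09, and by -0.03 without Ctrl replicate 4. Adam17, the protease that sheds TNF and its receptors, differed by 0.09 (95% confidence interval -0.04 to 0.22), its cofactor Rhbdf2 by 0.07 and Sppl2b by -0.07. Rhbdf2 came to 0.03 without Ctrl replicate 4, and Sppl2b to -0.04 without Ctrl replicate 3. Of 8 regulators of mRNA stability, Zfp36l1, which binds AU-rich elements, was lower in each IL6raKO array (difference -0.13, 95% confidence interval -0.27 to 0.01, limma adjusted p = 0.707). The closest pair was 8.66 in IL6raKO replicate 4 and 8.67 in Ctrl replicate 4. Of the 68 genes in all lists, 2 (2.94%) were lower without overlap, Mlkl and Zfp36l1, and 1 (1.47%) was higher, Ikbkg. The shares of all genes were 2.37% and 2.07%. Tia1 differed by 0.17, which came to 0.01 without Ctrl replicate 4, and Khsrp by -0.06, which was -0.03 without Ctrl replicate 4 and -0.13 without Ctrl replicate 1. Of 8 further genes, family members and the adaptor Edaradd, Edar differed by -0.15, Eda2r by 0.13 and Relt by 0.12, with intervals that included 0. Edar came to -0.10 without Ctrl replicate 4.

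**Figure D5:**
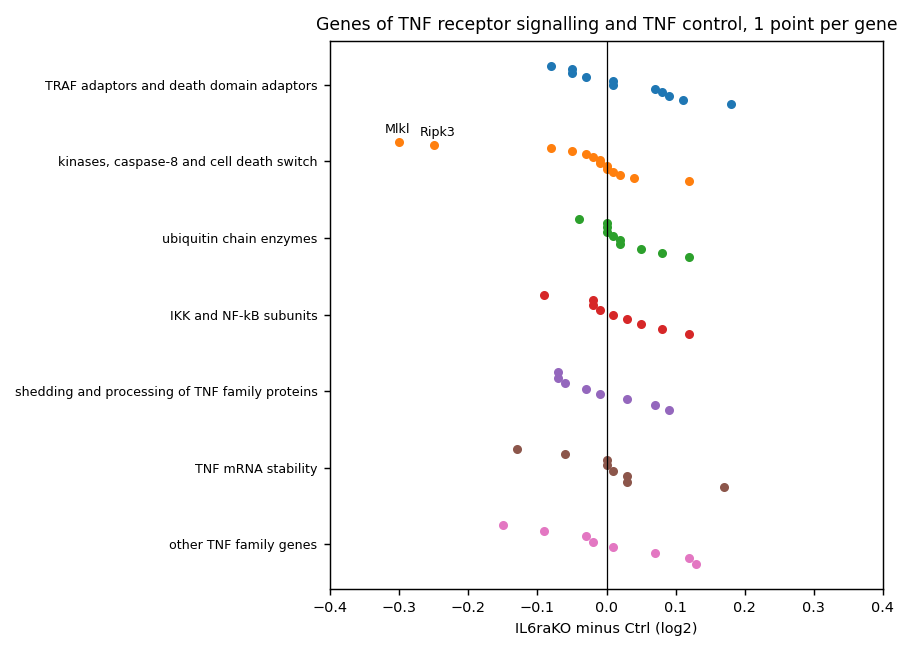
Difference, IL6raKO minus Ctrl on the log2 scale (x axis), of each of 68 genes in 7 lists of TNF receptor signalling and TNF control (y axis), 1 point per gene with no error drawn. Ripk3 and Mlkl, the 2 labelled points at an unadjusted p under 0.05, stand at -0.25 and -0.30, and all other points lie between -0.15 and 0.18.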

How the data were processed

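Expression in 8 cultures was measured on Affymetrix whole-transcript arrays. The deposited table gives 1 log2 value per probe set and array (35556 probe sets, 1.96 to 14.2). RMA and R 2.13.1 are named per the submitters' processing notes, and no source used here gives other steps or a build. The log2 scale was inferred from the range and from RMA.

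GEO's platform annotation gave 21789 probe sets 1 symbol, 1621 several and 12146 none. Of those with 1 symbol, 21698 were found by Entrez identifier in RefSeq (GRCm38.p6), with 0 symbols changed. Per gene, the probe set of highest mean over all arrays was used. IL6raKO was compared with Ctrl in limma 3.58.1 (R 4.3.3, lmFit and eBayes), all 8 arrays, no covariate or filter, Benjamini-Hochberg adjustment over 19938 genes, two-sided, threshold 0.05. The procedure was tested on simulated data.

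Members and lists were chosen with earlier results of these data known. Values in every array are given for the 12 members of lowest p and for 10 known macrophage genes. Up to 3 genes of lowest p are named per pathway list. Il6ra was read as a check of the genotype and Stat3 beside it, both also chosen with earlier results known. Stat3 is not the deleted gene, so its value does not show the deletion. Tnfsf8 was singled out after its values were seen. List entries on no probe set of a single symbol were not used here. Alternatives, 17 in all, were other variance models, a replicate block, filters, normalizations, array weights, probe set choices and each array left out.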

Additional observations from a re-analysis of the deposited data

Results flagged for a closer look

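Each gene and genotype gave 4 values, 120 such sets in all. In 5 of them 1 value lay far from the rest, and chance alone gives 1 in 20, or about 6. Tnfrsf13b, a receptor of BAFF, was at 6.67 in IL6raKO replicate 1, with the remaining IL6raKO arrays from 6.52 to 6.54. Tnfrsf1b was at 10.92 in Ctrl replicate 3, with the remaining Ctrl arrays from 10.82 to 10.83. Daxx was at 8.05 in IL6raKO replicate 3 (others 7.80 to 7.83), Ikbkg at 7.42 in IL6raKO replicate 4 (others 7.29 to 7.31) and Khsrp at 7.35 in Ctrl replicate 1 (others 7.60 to 7.65).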

How the results depend on the processing

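The count of called members was 0 under all 17 alternatives, and the median difference of the members stayed within -0.047 and 0.015. The count of all genes called was 6, and it was 0 with all probe sets, 0 with the replicate block, 3 with repeated quantile normalization, 11 under both filters on dim genes, 22 with a trended and robust variance, and 0 or 1 with any 1 array left out. At an unadjusted p under 0.05, 1 member was lower and 1 higher. The higher count was 0 with the replicate block, array weights, repeated quantile normalization or centring on the 75th percentile, and 0 or 1 with an array left out. The lower count was 2 with that centring, which added Tnfsf14, and 1 or 2 with an array left out. Tnfrsf1a was at an unadjusted p under 0.05 in all of these fits. Of 663 recomputed differences of named genes, 643 kept their direction and side of the threshold. The 6 that changed sign were Tnfrsf12a without Ctrl replicate 2 (-0.056) or IL6raKO replicate 1 (-0.020), Tnfsf10 without Ctrl replicate 4 (0.061) or IL6raKO replicate 3 (0.076), Tnfsf13b without Ctrl replicate 3 (-0.004), and Cflar over its probe sets (0.041). With arrays left out, Tnfrsf12a reached 0.079, Tnfsf10 -0.120 and Tnfsf13b 0.217 at the other end. The 14 others concerned the calls of Stat3 and Il6ra. Same-numbered replicates did not vary together (correlations of -0.01, -0.01, 0.04 and -0.01 over genes), so the replicate block rests on shared numbers alone, and Tnfrsf1a differed by -0.207 with it. Causes were not tested. Dim members such as Cd40lg limit what these arrays can resolve.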
